A study of Mus musculus with 7 samples.

Results

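The receptors through which hematopoietic cells sense the myeloid cytokines were examined in hematopoietic stem cells (HSCs) with and without deletion of the gene for C/EBPα, a transcription factor that granulocytes need in order to form. The genes were chosen by name: Csf3r, Csf1r, Csf2ra, Csf2rb, Csf2rb2, Il3ra, Il6ra and Il6st. Each of the 8 was represented by exactly 1 probe set annotated to no other gene, out of 19938 genes measured. The mice were female C57BL/6, and HSCs had been sorted from their marrow as Lin-, Sca1+, cKit+, CD150+, CD48- cells. Every mouse had loxP-flanked Cebpa (Cebpa flox/flox). The mice were either without Cre (called Cebpa fl/fl, 3 arrays) or carried the Mx1Cre transgene as well (Cebpa flox/flox; Mx1Cre, called Cebpa Δ/Δ, 4 arrays). Mice of both genotypes were injected with pIC, an inducer of interferon, 3 times from an age of 10 to 12 weeks, and HSCs were taken at day 18. Mx1Cre is switched on by interferon and is not restricted to HSCs, and the control mice lacked the Cre transgene. The labels speak of triplicates, whereas the design text gives 3 and 4 mice, which equals the number of arrays.

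Cytokine receptors of this kind have no enzyme of their own, except Csf1r, which is a receptor tyrosine kinase. Binding of the ligand brings chains together, the attached JAK kinases then phosphorylate the receptor, and STAT proteins dock, are phosphorylated and move to the nucleus, where they switch on targets that include SOCS inhibitors of the same pathway. A ligand-specific alpha chain often shares a signalling chain with other receptors: Csf2rb is the common beta chain of the receptors for GM-CSF, IL-3 and IL-5, and Il6st (gp130) is shared by the receptors of the IL-6 family. In committed myeloid cells several of these receptor genes are known targets of C/EBPα and of PU.1.

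Values are RMA intensities on the log2 scale, so a difference of 1 is a doubling. Differences are Δ/Δ minus fl/fl, given with the standard error (SE) of a limma fit across all genes. A gene was called when its unadjusted p was under 0.05 and its change over 1.5-fold, the thresholds of the study. Benjamini-Hochberg adjusted p-values over all genes are given beside them, and none was under 0.05 for any gene. Single values were also compared by a two-sided exact permutation test of the 35 possible splits, which cannot give a p under 0.0286. In bulk samples, fewer cells of a type and less RNA per cell cannot be told apart.

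Before the receptors, the arrays themselves were inspected. Array medians lay between 46.2 and 50.4 on the intensity scale, and no array was a copy of another. The arrays fl/fl 1 and Δ/Δ 3 stood apart, with a mean correlation of 0.979 with the other arrays, against 0.982 to 0.985 for the rest, and both lay at one end of the second principal component. Cebpa itself read 5.54, 5.75 and 5.63 in Cebpa fl/fl and 5.11, 5.24, 5.27 and 5.27 in Cebpa Δ/Δ, so the genotypes did not overlap. The difference was -0.41 on the log2 scale (SE 0.07, limma unadjusted p = 0.000923, adjusted p = 0.337), which is short of 1.5-fold. Both genotype means, 5.64 and 5.22, lay below the median gene (5.86). The paper reports complete recombination of the allele by the time of analysis, from PCR of whole marrow and spleen. It also found no donor granulocytes in transplanted recipients, which it reads as full recombination in the transplanted cells. The PCR was not of the sorted HSCs. How far Cebpa was deleted in the HSCs on these arrays was not tested, and the array difference is not taken as a measure of it. Of the 12 measured antigens of the sort gate and HSC genes, 12 lay above the median gene and 0 were called, with a median difference of -0.29. Their mean, centred on each gene's mean, was -0.28 in Δ/Δ 1 and -0.58 in Δ/Δ 3 and between 0.12 and 0.22 in the other arrays. Of the antigens that the sort excluded, Cd48 was called higher in Cebpa Δ/Δ by 2.75 (SE 0.58), and Ly6g, a granulocyte antigen, was called lower at -1.84 (SE 0.34).

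Of the 8 receptors, Csf2rb2 alone was called, and it was higher in Cebpa Δ/Δ. Against this count of 1 of 8, 1.57% of all genes were called higher, and against 0 of 8, 0.617% were called lower, or 2.19% in either direction. The log2 difference was above 0 for 4 receptors and below 0 for 4, with a median of 0.02 beside 0.00 over all genes. The median size of the difference regardless of direction was 0.209, against 0.0927 over all genes. The receptors also varied more among arrays of one genotype, with a median SD of 0.249 against 0.155 over all genes. Of the 8 receptors, 7 lay above the median gene, and neither measure was compared with genes of similar level. For 4 receptors, Csf1r, Csf2ra, Il3ra and Il6st, the 95% interval of the fit lay within 1.5-fold in either direction. For Csf1r this was marginal, with an upper limit of 0.584 against a bound of 0.585 on the log2 scale. Csf1r also lay below the median gene, so its interval does not bound a change as those of the brighter receptors do.

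**Figure D1:**
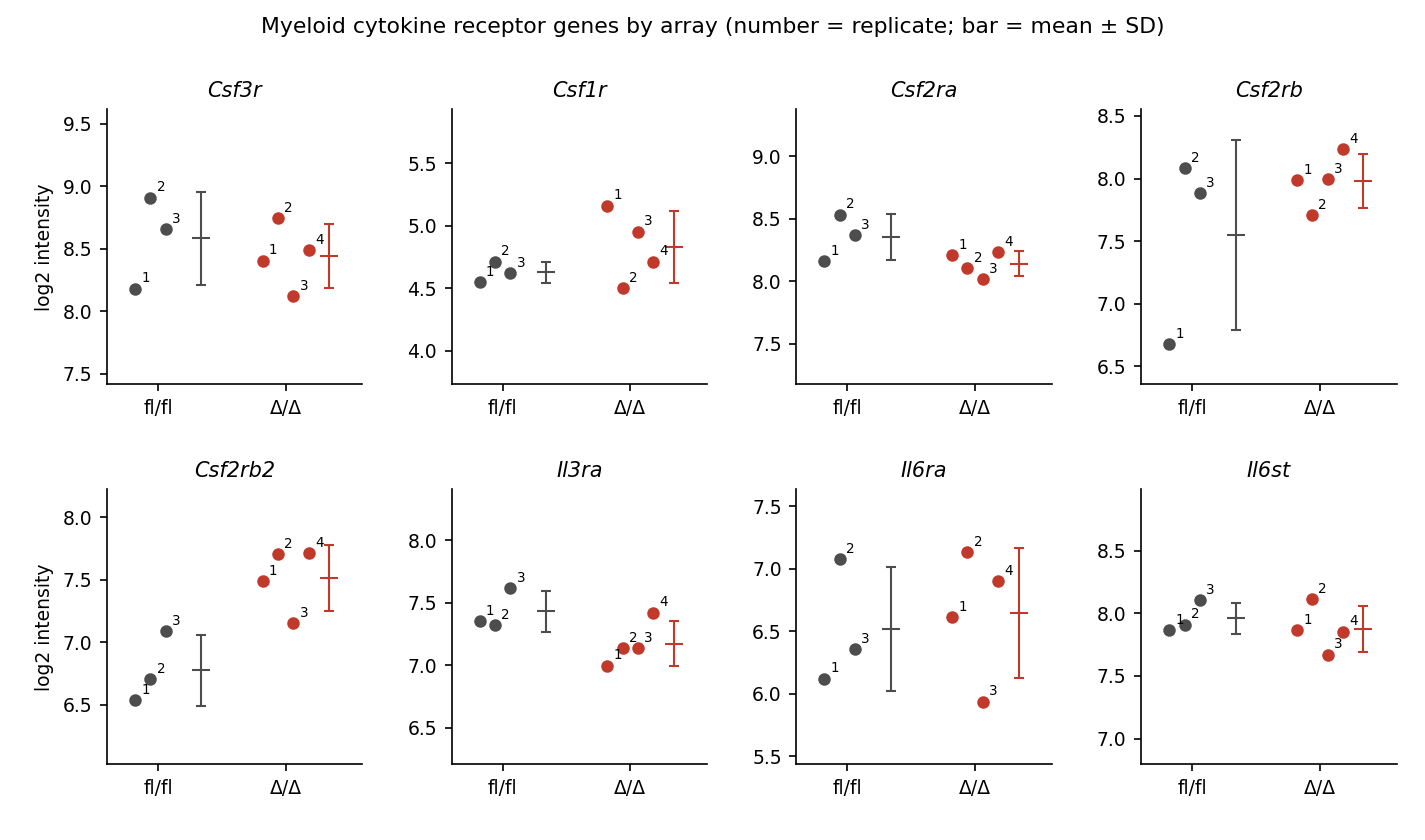
Log2 intensity (vertical axis, a separate range for each gene) of the 8 receptor genes in the 3 Cebpa fl/fl arrays (grey) and the 4 Cebpa Δ/Δ arrays (red), numbered by replicate, with the mean ± SD of each genotype beside the points. The genotypes overlap for every gene but Csf2rb2, and the wide bar of Csf2rb in Cebpa fl/fl comes with the value of 6.68 in fl/fl 1.

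The gene that differed, Csf2rb2, encodes a second beta chain, found in mice and not in humans, which joins the IL-3 receptor alpha chain only. The stretch of 250 bases before its start site is shown because it belongs to the 1 receptor gene that was called. That of Csf3r, which encodes the receptor of the granulocyte growth factor G-CSF, is shown beside it because the study placed a C/EBPα chromatin immunoprecipitation primer in it. Both are RefSeq sequences of the assembly GRCm38.p6, 5′ to 3′ on the strand of the gene, with matches to GAGGAA, the core of PU.1 motifs, or its reverse complement TTCCTC in capitals.
Csf2rb2, chr15:78305722-78305971, minus strand: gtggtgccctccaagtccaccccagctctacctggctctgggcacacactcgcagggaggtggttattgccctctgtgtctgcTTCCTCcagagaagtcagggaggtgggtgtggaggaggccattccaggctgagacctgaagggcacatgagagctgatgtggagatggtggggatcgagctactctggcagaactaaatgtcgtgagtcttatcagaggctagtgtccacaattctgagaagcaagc
Csf3r, chr4:126024409-126024658, plus strand: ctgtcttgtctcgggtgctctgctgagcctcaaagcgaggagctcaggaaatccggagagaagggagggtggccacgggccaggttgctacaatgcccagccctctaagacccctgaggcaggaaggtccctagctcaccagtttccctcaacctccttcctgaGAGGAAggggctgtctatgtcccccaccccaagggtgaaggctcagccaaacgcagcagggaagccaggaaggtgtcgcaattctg
The forward primer of the study, tagctcaccagtttccctca, begins at position -119 from the start of Csf3r, and the reverse primer lay outside this window. Binding data were not analysed here.

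Promoter sequences (250 bases before to 50 after the start) were at hand for 6 of the 8 genes, those other than Csf1r and Csf2rb. A C/EBP core, searched as TTNNGNAA on both strands, was present in 4 of these 6 (Csf2ra, Csf2rb2, Il3ra and Il6ra) and in 40.7% of all 32851 promoters of the same length. The letters GAGGAA, on either strand, were present in 4 of 6 (Csf2ra, Csf2rb2, Csf3r and Il6ra) and in 28.3% of all promoters. In Csf2rb2 the C/EBP matches lay downstream of the start, from bases 9 and 30. In Csf2rb2 and Il6ra a single run, TTCCTCAA, matched both motifs. Upstream matches to the C/EBP core in the chains that pair with Csf2rb2, Csf2rb and Il6st are shown in capitals within 30 bases, 1 for each gene:
Il3ra, chr14:14346350-14346379, plus strand: atctcaggaagTTGCTCAAtctcgggacca
Csf2ra, chr19:61228431-61228460, minus strand: tcccctctaggTTTCCCAAcctgcagatga
Il6ra, chr3:89913294-89913323, minus strand: tcctactgggcTTTCGTAAccgcgagccgg
The matches begin at positions -134, -31 and -116 from the start, in that order, and Il6ra held a further upstream match, the run TTCCTCAA, at -70. A match is a description of the letters, and both motifs were chosen after the sequences had been seen.

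The receptors for the lineage-restricted growth factors came first. Csf3r read 8.18, 8.91 and 8.66 in Cebpa fl/fl and 8.41, 8.74, 8.12 and 8.49 in Cebpa Δ/Δ. The lowest array of all was Δ/Δ 3 and the next lowest fl/fl 1, so the genotypes overlapped throughout. The means were 8.58 ± 0.37 (SD, n = 3) and 8.44 ± 0.26 (SD, n = 4), a difference of -0.14 (SE 0.21, limma unadjusted p = 0.514, adjusted p = 0.857). The 95% interval ran from -0.65 to 0.36, so a fall of just over 1.5-fold lay inside it. Without fl/fl 2, the highest array, the difference was 0.02. Over the same arrays, 13 of 15 neutrophil marker genes were called lower and 0 higher, with a median of -2.78 and summed intensities of 7109 to 17114 in Cebpa fl/fl against 400.2 to 1180 in Cebpa Δ/Δ. S100a8, S100a9, Lcn2 and Ngp, which encode antimicrobial granule and cytosol proteins of neutrophils, fell on the log2 scale by 5.20, 5.24, 5.12 and 5.14. Csf3r differed by -0.14 between the same arrays, and what part neutrophil RNA had in its level was not tested.

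Csf1r, the M-CSF receptor of monocytes and macrophages, was dim. Its intensities of 22.6 to 35.7 lay below the median of all probe sets on every array, so that these values do not show whether HSCs held its transcript. On the log2 scale they were 4.55, 4.71 and 4.62 in Cebpa fl/fl and 5.16, 4.50, 4.95 and 4.71 in Cebpa Δ/Δ. The highest were Δ/Δ 1 and Δ/Δ 3, whereas Δ/Δ 2 was the lowest of all. The difference was 0.21 (SE 0.16, 95% interval -0.17 to 0.58, limma unadjusted p = 0.236, adjusted p = 0.751). Monocyte and macrophage markers were called higher for 6 of 16 genes and lower for 0, with summed intensities of 1413 to 2189 and 1774 to 2379. Among them were Spic (2.48, SE 0.34), a transcription factor of red pulp macrophages, and the complement genes C1qc (2.02, SE 0.43) and C1qb (1.81, SE 0.41), whereas Lyz2, a lysozyme gene that neutrophils share, had a difference of -0.88 (SE 0.43) that was not called. The mean of this list, centred on each gene's mean, was -0.55, -0.36 and -0.57 in Cebpa fl/fl and 0.79, 0.01, 0.62 and 0.08 in Cebpa Δ/Δ. It was highest in the arrays in which Csf1r was highest, Δ/Δ 1 and Δ/Δ 3, and its part in the Csf1r values was not tested.

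The GM-CSF and IL-3 receptors share beta chains. Their specific alpha chains both had differences below 0 that were not called. Csf2ra, the GM-CSF alpha chain, read 8.16, 8.53 and 8.37 in Cebpa fl/fl and 8.21, 8.11, 8.02 and 8.23 in Cebpa Δ/Δ. Only fl/fl 1 lay within the range of the Cebpa Δ/Δ arrays. The difference was -0.21 (SE 0.10, 95% interval -0.46 to 0.03, limma unadjusted p = 0.0802, adjusted p = 0.690). It ranged from -0.31 without fl/fl 1 (unadjusted p = 0.0149, adjusted p = 0.653) to -0.12 without fl/fl 2 (unadjusted p = 0.251).

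Il3ra, the IL-3 alpha chain, read 7.35, 7.32 and 7.62 in Cebpa fl/fl and 6.997, 7.14, 7.14 and 7.42 in Cebpa Δ/Δ. Here Δ/Δ 4 alone reached into the range of the controls. The difference was -0.26 (SE 0.12, 95% interval -0.55 to 0.04, limma unadjusted p = 0.0768, adjusted p = 0.688). It ranged from -0.34 without Δ/Δ 4 (unadjusted p = 0.0177, adjusted p = 0.694) to -0.16 without fl/fl 3 (unadjusted p = 0.243). Neither alpha chain passed both thresholds in any setting that was tried.

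The beta chains lay on the other side of 0. Csf2rb2 read 6.54, 6.70 and 7.09 in Cebpa fl/fl and 7.49, 7.70, 7.15 and 7.71 in Cebpa Δ/Δ. The genotypes did not overlap, which held in the same direction for 3.51% of all genes, in the opposite direction for 2.46% and in either for 5.97%, although the lowest Cebpa Δ/Δ array (7.15, Δ/Δ 3) was close to the highest control (7.09, fl/fl 3). The means were 6.78 ± 0.28 (SD, n = 3) and 7.51 ± 0.26 (SD, n = 4). This was a rise of 0.74 (SE 0.19, 95% interval 0.29 to 1.18), or 1.67-fold, with a limma unadjusted p of 0.00630 and an adjusted p of 0.507. The exact permutation p was 0.0571. Leaving out any 1 array kept the rise between 0.62 and 0.89 and past the thresholds.

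Csf2rb, the common beta chain, read 6.68, 8.08 and 7.89 in Cebpa fl/fl and 7.99, 7.71, 7.99 and 8.23 in Cebpa Δ/Δ. Array fl/fl 1 lay far below the other arrays, which overlapped. The difference was 0.43 (SE 0.34, 95% interval -0.40 to 1.26, limma unadjusted p = 0.253, adjusted p = 0.758). It rested on that array, since it was -0.005 without fl/fl 1 and -0.0096 without both fl/fl 1 and Δ/Δ 3. Csf2rb and Csf2rb2 are near-identical neighbours on chromosome 15, with 0 protein-coding genes between them. Probe sequences were not used here, so how far each probe set also reads its neighbour is uncertain. Both probe sets were at their lowest in fl/fl 1, whereas in Δ/Δ 2 Csf2rb was lowest among the Cebpa Δ/Δ arrays and Csf2rb2 was not.

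**Figure D2:**
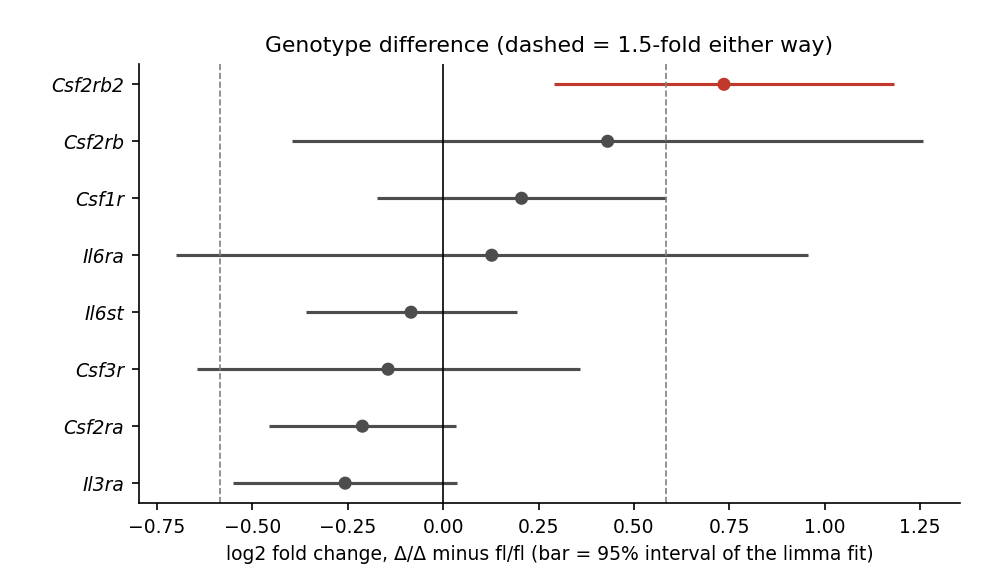
Log2 fold change (horizontal axis, Cebpa Δ/Δ minus Cebpa fl/fl) of each receptor gene with the 95% interval of the limma fit, ordered by size; dashed lines mark 1.5-fold in either direction. The interval of Csf2rb2 alone lies wholly on one side of 0, and the intervals of Csf2rb and Il6ra are the widest.

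Among transcripts above the median gene, those whose log2 values followed Csf2rb2 most closely over the 7 arrays, out of 9968 ranked, were Gbp5 (r = 0.993), Scyl2 (r = 0.976) and Wfdc11 (r = 0.955). Gbp5 encodes a guanylate-binding protein of the interferon response. Its values were 7.11, 7.20 and 7.54 in Cebpa fl/fl and 7.75, 8.01, 7.62 and 7.98 in Cebpa Δ/Δ, a difference of 0.56 (SE 0.14) that was short of 1.5-fold. These likenesses are over arrays that also share genotype, and are given as a description.

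The IL-6 receptor consists of the specific chain Il6ra and the signalling chain Il6st. Il6ra varied widely within each genotype, reading 6.12, 7.08 and 6.36 in Cebpa fl/fl and 6.61, 7.13, 5.94 and 6.90 in Cebpa Δ/Δ. The lowest arrays were again Δ/Δ 3 and fl/fl 1. The difference was 0.13 (SE 0.34, 95% interval -0.70 to 0.95, limma unadjusted p = 0.723, adjusted p = 0.930), so changes of over 1.5-fold in either direction lay inside the interval. It was -0.07 without fl/fl 1 and -0.04 without Δ/Δ 2. Il6st read 7.87, 7.91 and 8.10 in Cebpa fl/fl and 7.87, 8.12, 7.67 and 7.86 in Cebpa Δ/Δ. Every control array lay within the range of the Cebpa Δ/Δ arrays. The difference was -0.08 (SE 0.12, 95% interval -0.36 to 0.19, limma unadjusted p = 0.491, adjusted p = 0.847).

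The lowest values of a genotype often fell on the same array. Array fl/fl 1 was the lowest of its genotype for 7 of the 8 receptors, all but Il3ra. Array Δ/Δ 3 was the lowest of its genotype for 5 of 8 and of all arrays for 4. For Csf1r and Csf2rb the lowest Cebpa Δ/Δ array was Δ/Δ 2, and for Il3ra it was Δ/Δ 1. Arrays fl/fl 1 and Δ/Δ 3 are those that stood apart over all genes, and how often they were lowest over all genes was not counted. Without both of them Csf2rb2 was higher by 0.74 (limma unadjusted p = 0.00773), Csf2ra differed by -0.27 (unadjusted p = 0.0233) and Csf3r by -0.24 (unadjusted p = 0.165).

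**Figure D3:**
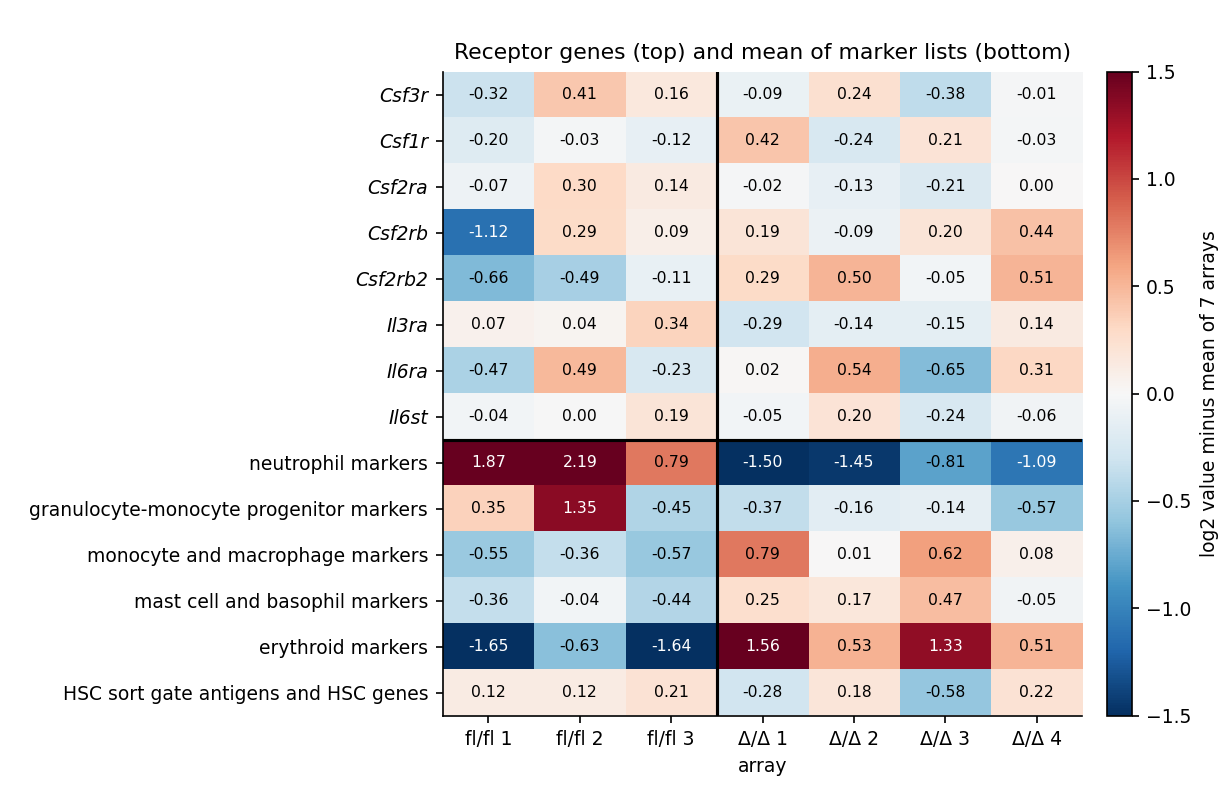
Log2 value of each receptor gene (upper rows) and mean of the marker lists (lower rows) in each array, relative to the mean of the 7 arrays; colours saturate at 1.5 on either side and the numbers give the values. Csf3r and Il6ra are low in fl/fl 1 and Δ/Δ 3, whereas the neutrophil and erythroid lists divide the genotypes.

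Chains that form or share a receptor were then compared within each array, as the log2 difference of the pair relative to its mean in Cebpa fl/fl, which takes out what the chains have in common in an array. Of the 5 pairs, Il3ra minus Csf2rb2, the chains of the mouse-specific IL-3 receptor, had the largest change. Its values were 0.16, -0.04 and -0.12 in Cebpa fl/fl and -1.15, -1.22, -0.67 and -0.94 in Cebpa Δ/Δ. The genotypes did not overlap, with a change of -0.99 (exact permutation p = 0.0286, adjusted over the 5 pairs 0.0714). The change ranged from -1.10 to -0.91 when any 1 array was left out. It is the Il3ra difference (-0.26) less the Csf2rb2 difference (0.74), so it is not separate from the Csf2rb2 call. The pairs were chosen with earlier results of these data known, and how often other gene pairs do not overlap was not counted.

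For Csf2ra minus Csf2rb, the chains of the GM-CSF receptor, the values were 0.68, -0.35 and -0.32 in Cebpa fl/fl and -0.58, -0.41, -0.78 and -0.80 in Cebpa Δ/Δ. The genotypes did not overlap, but fl/fl 2 and Δ/Δ 2 were close. The change was -0.64 (exact permutation p = 0.0286, adjusted 0.0714), and without fl/fl 1 it was -0.30. The remaining pairs overlapped. Csf2rb2 minus Csf2rb changed by 0.30 and Csf1r minus Csf3r by 0.35 (exact permutation p = 0.4 for both, adjusted 0.5). The former was 0.62 without fl/fl 1, 0.0015 without fl/fl 2 and 0.75 without both fl/fl 1 and Δ/Δ 3, and the latter ran from 0.20 without Δ/Δ 3 to 0.56 without Δ/Δ 2. Il6ra minus Il6st changed by 0.21 (exact permutation p = 0.6, adjusted 0.6), and ran from 0.06 without fl/fl 1 to 0.52 without fl/fl 2. After adjustment no pair was under 0.05, which 5 tests over 35 splits could reach only if 3 or more pairs had the smallest p.

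**Figure D4:**
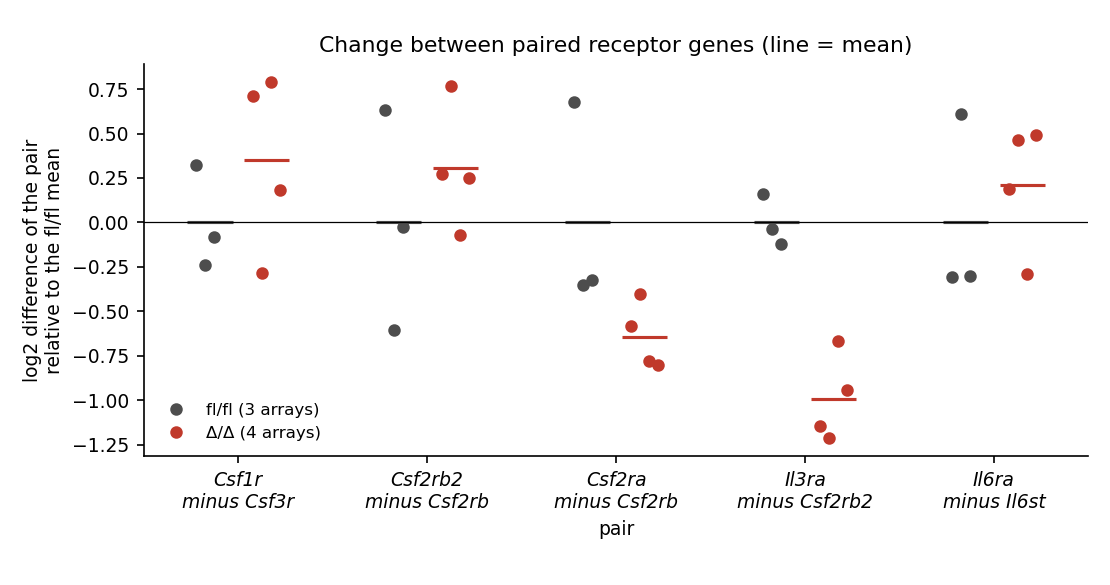
Within-array log2 difference between paired receptor genes relative to the mean of the Cebpa fl/fl arrays (vertical axis), with 1 point per array and a line at each genotype's mean. For Il3ra minus Csf2rb2 all 4 Cebpa Δ/Δ arrays lie between -1.22 and -0.67, below the 3 controls, whereas 3 of the 5 pairs overlap.

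Ligands of these receptors were mostly dim, with 5 of 14 above the median gene. Over all genes 1.57% were called higher and 0.617% lower, the shares beside which this list and the later ones stand. Of the 14 ligands, 0 were called higher and 1 lower, with a median of 0.01. The one called was Ebi3, a subunit that combines with partner chains into IL-27 and IL-35. It read 8.25, 8.52 and 8.92 in Cebpa fl/fl and 7.68, 8.05, 7.10 and 7.88 in Cebpa Δ/Δ. The genotypes did not overlap, and Ebi3 fell by 0.89 (SE 0.26, limma unadjusted p = 0.0127, adjusted p = 0.627), a call that was lost without fl/fl 3. The genes of the named ligands did not pass, with differences of 0.02 for Csf3 (G-CSF), 0.00 for Csf1 (M-CSF), 0.06 for Csf2 (GM-CSF), 0.09 for Il3 and 0.16 for Il6.

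Also listed were partners of Csf2rb or Il6st and related chains such as Lepr and Il31ra. Of the 8 measured, 1 was called higher and 0 lower (median 0.05). This was Lifr, the receptor chain of leukaemia inhibitory factor, with 3.81, 3.65 and 3.39 in Cebpa fl/fl and 4.58, 4.34, 4.18 and 4.07 in Cebpa Δ/Δ, a rise of 0.67 (SE 0.15). All of its arrays were far below the median gene, and the call was lost when low values were raised to the 25th percentile, and without fl/fl 3 or Δ/Δ 1. Il5ra, the IL-5 alpha chain and a partner of Csf2rb, differed by 0.03 (SE 0.05).

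Receptors for other cytokines of stem and progenitor cells were listed as well. Of 24 measured, 6 were called higher and 0 lower (median 0.07), beside 1.57% and 0.617% of all genes. With only genes above the median level, which leaves out Il7r and Il18r1, 4 of 21 were called higher, beside 248 of 9969 genes. The list was written with earlier results of these data known, so its count is a description. Il7r, the IL-7 receptor chain of lymphoid cells, rose by 1.85 (SE 0.26), from 3.74, 3.56 and 2.91 to 5.07, 5.39, 5.64 and 4.90. It lay below the median gene (5.86) on every array of both genotypes. Ifngr1, an interferon-γ receptor chain, rose by 0.62 (SE 0.09), from 8.04, 7.99 and 8.15 to 8.84, 8.75, 8.60 and 8.52, with no overlap. Il18r1 (1.04, SE 0.32), Flt3 (0.69, SE 0.23), Epor (1.08, SE 0.36) and Il10ra (0.99, SE 0.35) were the others, receptors for IL-18, FLT3 ligand, erythropoietin and IL-10. Among the 24, the count was 3 without fl/fl 1 and 2 without both fl/fl 1 and Δ/Δ 3, where Il7r and Ifngr1 were the ones called. Ifngr1 was not called without fl/fl 2 or without Δ/Δ 1, and Il7r alone of the 6 was called whichever single array was left out. Il7r and Flt3 also belong to the early lymphoid markers, of which 3 of 11 were called higher, among them Dntt (3.71, SE 0.38), and the 11 measured erythroid markers were all called higher (median 2.28), with summed intensities of 1047 to 2942 and 5916 to 10478. Slc4a1, the anion exchanger of red cells, rose by 3.08 (SE 0.36). Their part in the receptor values was not tested. Kit, the stem cell factor receptor and a sort antigen, differed by -0.34 (SE 0.15, limma unadjusted p = 0.0568) without being called.

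Downstream of the receptors, 0 of 26 kinases, STATs and adaptors were called in either direction (median -0.03), and 2 had a limma unadjusted p under 0.05, against 7.48% of all genes. With an unmoderated fit it was 1. Both had differences below 0, Pik3cg, a phosphoinositide 3-kinase of blood cells, by -0.49 (SE 0.16) and Inpp5d, the phosphatase SHIP1, by -0.27 (SE 0.11). Stat4, a transducer of IL-12 signals, had the list's largest difference, -0.53 (SE 0.24, limma unadjusted p = 0.0682), with overlapping arrays. The differences were 0.06 for Jak1, 0.11 for Jak2, -0.03 for Stat3, -0.03 for Stat5a and 0.04 for Stat5b.

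Of 22 inhibitors of cytokine signalling, 0 were called (median -0.03), with 1 under an unadjusted p of 0.05 by either fit. This was Ptpn1, a phosphatase that acts on JAK2, at 0.37 (SE 0.09). Socs3, the feedback inhibitor of gp130 and of the G-CSF receptor, had a difference of 0.61 (SE 0.27, limma unadjusted p = 0.0603), and was called under 3 other scalings or filters and without fl/fl 3. Cish, a STAT5 target and inhibitor, spread from 6.24 to 8.27 over the arrays and differed by -0.59 (SE 0.47).

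Of 23 targets of STAT3 and STAT5, 1 was called higher and 1 lower (median -0.00). Their differences ran from -0.73 to 1.01, and 4 had an unadjusted p under 0.05 by either fit, against 7.48% of all genes. Ccnd1, cyclin D1, differed by -0.41 (SE 0.12, limma unadjusted p = 0.0143) with no overlap, short of 1.5-fold. Bcl6, a transcriptional repressor, rose by 1.01 (SE 0.34) with overlapping arrays, and was not called without fl/fl 1 or without fl/fl 2. Ccnd2, cyclin D2, fell by 0.71 (SE 0.15) with none overlapping, and was not called without both fl/fl 1 and Δ/Δ 3. Pim1, a serine kinase induced by these cytokines, differed by 0.33 (SE 0.17). Of 18 transcription factors of granulocytes and monocytes, 1 was called higher and 0 lower (median -0.01). The one called, Id2, a repressor of helix-loop-helix factors, rose by 1.47 (SE 0.43). The lowest difference among the 18 was -0.84, which was not called. An unadjusted p under 0.05 by either fit was found for 3 of the 18, and 2 were lower without overlap, beside 2.46% of all genes. Spi1, which encodes PU.1, differed by 0.24 (SE 0.16) and Cebpb by 0.14 (SE 0.14). Cebpe, a C/EBP factor of late granulocytes, had an unadjusted p of 0.00963 at -0.32 (SE 0.09), short of 1.5-fold.

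**Figure D5:**
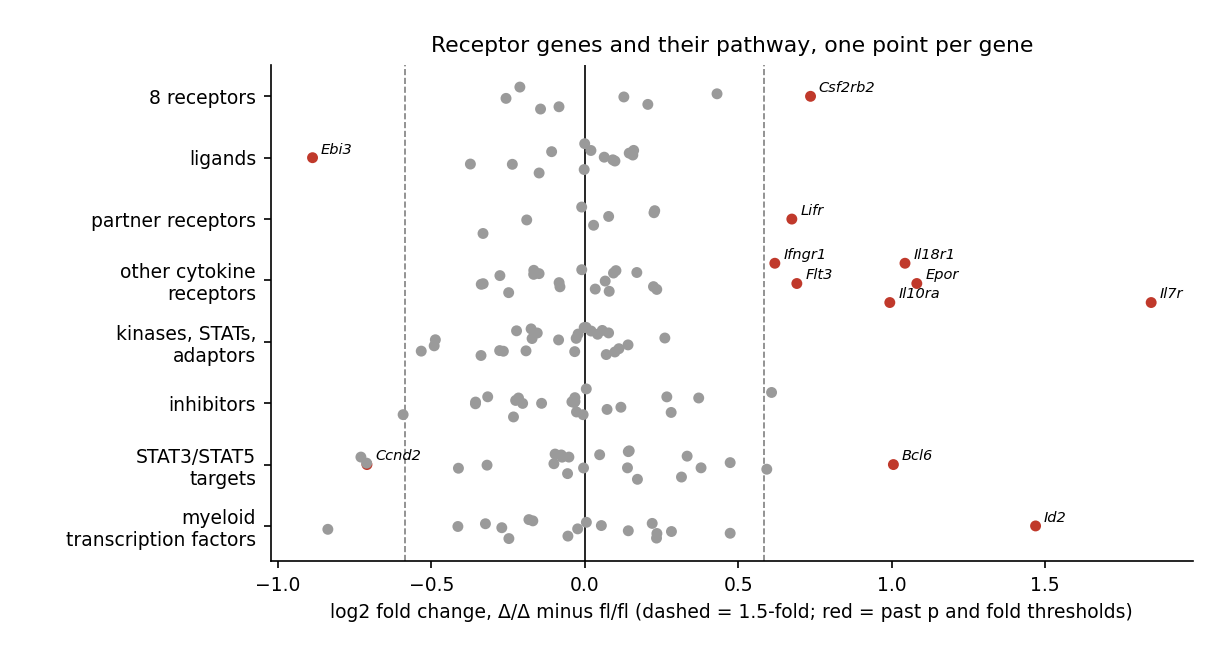
Log2 fold change (horizontal axis, Cebpa Δ/Δ minus Cebpa fl/fl) of every measured gene of the receptor list and of the pathway lists, with 1 point per gene, called genes in red and named, and dashed lines at 1.5-fold; vertical position within a row has no meaning. Calls number 6 of 24 among other cytokine receptors, 0 of 26 among kinases, STATs and adaptors and 0 of 22 among inhibitors. Over all genes 2.19% were called in either direction, so lists of 26 and 22 genes can hold none without differing from other genes.

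The remaining marker lists, of cells that also carry these receptors, are given for their values. Mast cells and basophils express the IL-3 receptor chains, and 2 of 10 of their markers were called higher, Cpa3 (2.66, SE 0.50) and Gzmb (1.34, SE 0.42), with summed intensities of 195.1 to 288.0 in Cebpa fl/fl and 325.8 to 747.9 in Cebpa Δ/Δ. This sum was highest in Δ/Δ 3, where Csf2rb2 was lowest among the Cebpa Δ/Δ arrays. The median difference of this list was 0.12, and 1 of the 10 lay above the median gene, so its sum does not describe the list as a group. Of the granulocyte-monocyte progenitor markers 1 of 10 was called lower, Elane (-2.24, SE 0.82), with a list median of -0.49. Elane read 7.56, 10.02 and 6.38 in Cebpa fl/fl and 5.61, 5.25, 6.32 and 5.80 in Cebpa Δ/Δ. In an unmoderated fit 0 of the 10 had an unadjusted p under 0.05. Sums of this list, 4709 to 9052 and 4265 to 5930, overlapped. Of the dendritic cell markers 1 of 12 was called higher, Cd74 (0.64, SE 0.20), and of the megakaryocyte markers 1 of 9, Plek (0.92, SE 0.21). Dendritic cell sums were 1686 to 1875 and 1983 to 2929, and megakaryocyte sums were 2436 to 2997 and 2183 to 2779. What part such cells had in the receptor values was not tested.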

How the data were processed

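RNA of sorted HSCs was amplified from small amounts with a NuGEN kit and measured on Affymetrix Mouse Gene ST arrays. The authors computed the deposited intensity values by Robust Multichip Average (RMA) in Partek Genomics Suite. RMA makes the probe value distributions of all arrays equal, which hides any change in total RNA content. RMA and affy are listed in the submitters' notes, with no version. The genome build of the probe sets and scan dates were not given in the sources used here. The deposited values were linear (1.51 to 9840), and log2 was taken without a pseudocount. Values shared by 2 or more arrays occurred in 63.6% of genes, among the receptors in Csf1r only. The number of arrays limits the precision.

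Of 35556 probe sets, 21789 had 1 gene symbol, 1621 several and 12146 none here. Symbols of 21698 were updated through Entrez numbers with a RefSeq table of GRCm38.p6, and probe sets with several symbols were not used. For genes with more than 1 probe set, the one with the highest mean was used, giving 19938 genes. All columns with sample values were used.

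The comparison used limma 3.58.1 under R 4.3.3 (lmFit, then eBayes), with genotype as the only term and all 7 arrays. A gene was called at an unadjusted p under 0.05 and over 1.5-fold, with Benjamini-Hochberg adjusted p-values over all genes beside it. The study names no test for its arrays. Differences between paired receptors were tested by exact permutation and adjusted over 5 pairs. That the arrays came from separate mice rests on the mouse counts of the design text. The fit was tested on simulated data. The receptors, pairs and 17 other gene lists were chosen with earlier results of these data known. Named genes were drawn from the receptors, from each list at most the 4 called genes with the smallest p and, for marker lists, the 2 most abundant. Others, such as Epor, Il10ra, ligands, kinases, inhibitors and transcription factors that were not called, were chosen after their values were seen. Alternatives were other scalings, filters, offsets, probe set rules and variance models, a replicate block, and leaving out arrays.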

Additional observations from a re-analysis of the deposited data

Results flagged for a closer look

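Among 58 values checked, in the Cebpa Δ/Δ arrays only, 1 array stood apart from the others of its genotype. Cpa3, a mast cell protease gene, read 7.10 in Δ/Δ 4, whereas the other Cebpa Δ/Δ arrays lay between 8.57 and 8.87, so the gap was 0.834 of the whole range. Chance alone flags about 1 in 20 groups. The Cebpa fl/fl arrays were not checked in this way. Among them, Csf2rb read 6.68 in fl/fl 1, far below the other controls at 8.08 and 7.89.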

How the results depend on the processing

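Of 373 recomputed values, 346 were kept. Fold changes and tested pairs had to keep their direction and their side of the thresholds, and counts to stay within 1.5-fold. Pair differences with no test had to keep their direction and move by less than 1 SD within genotypes. Some values could not move, since each receptor has 1 probe set and subtracting array medians cancels within a pair. Same-numbered arrays of the genotypes did not deviate together (r = -0.02, 0.10 and -0.18), so the numbers name arrays only. With the replicate number as a block, the receptors called fell from 1 to 0, since Csf2rb2 had a difference of 0.67 (limma unadjusted p = 0.0585). With the block, ligands called were 0, kinases, STATs and adaptors 1 (Stat4), and STAT targets 1 (Ccnd2). For Csf2rb2 the unadjusted p lay between 0.00246 and 0.0585 over the alternatives and the adjusted p between 0.295 and 0.844. Subtracting array medians, cyclic loess and keeping only genes above the median level each gave 1 inhibitor (Socs3). Raising low values, an offset of 16 and the same filter gave 0 partner receptors. Without both fl/fl 1 and Δ/Δ 3, other cytokine receptors called were 2, and Csf2rb reversed to -0.0096. Leaving out 1 array at a time gave 0 to 1 ligands, 0 to 2 partner receptors, 3 to 5 other receptors, 0 to 1 kinases, STATs and adaptors, 0 to 1 inhibitors and 1 to 3 STAT targets. It gave differences of -0.345 to 0.0185 for Csf3r, which reversed without fl/fl 2. It gave -0.005 to 0.70 for Csf2rb, which reversed without fl/fl 1, and -0.071 to 0.41 for Il6ra, which reversed without fl/fl 1 or Δ/Δ 2. Pair differences without an array or with the block are values with no test. The cause was not tested for any of these. Csf1r was not tested under the filter on low values, because it lay below it. Over all genes, subtracting array medians turned 314 higher and 123 lower calls into 384 and 94, and moved the median gene by 0.04.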
